A study of Mus musculus with 6 samples.

Results

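The genes described here are 9 markers of the extraembryonic (primitive) and embryonic (definitive) endoderm, Sox7, Sox17, Foxa1, Foxa2, Hnf4a, Dab2, Cubn, Lrp2 and Pdgfra, out of 53465 genes counted. They were taken by symbol. RNA was sequenced from 6 cultures of Royan B20, a mouse embryonic stem cell line, in a single comparison. The R2i_BMPi group (3 cultures) received 250 nM noggin, a secreted protein that traps BMP ligands, and 5 µM dorsomorphin, a small molecule that blocks BMP type I receptor kinases. The R2i_control group (3 cultures) had neither. All 6 cultures grew on 0.1% gelatin with LIF in R2i medium, which holds 1 µM of the MEK inhibitor that the labels spell PD0329501 and 10 µM SB431542, a blocker of receptors for nodal, activin and TGF-beta. The labels do not give how long the BMP inhibitors were present, and since both were added together their effects cannot be told apart.

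In the mouse blastocyst the inner cell mass sorts into pluripotent epiblast and primitive endoderm. FGF4 made by epiblast cells acts through FGFR1, FGFR2 and the MEK-ERK cascade to sustain GATA6, and SOX17, GATA4 and SOX7 follow as primitive endoderm matures. This layer later forms visceral endoderm, an absorptive epithelium that takes up maternal nutrients by endocytosis, and parietal endoderm, which secretes basement membrane. Definitive endoderm, the source of gut, liver and lung, arises later from the primitive streak under nodal signalling and shares SOX17, FOXA2 and FOXA1 with the extraembryonic layer.

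Each library held 31474666 to 35322844 gene counts. Libraries of different groups separated on the first principal component (82.6% of the variance). R2i_BMPi replicate 2 stood apart on the second (5.54%), at -27.2 against 20.4 and 4.43 for replicates 1 and 3 of its group. It was also nearer the controls on the first component, at -47.6 against -57.0 and -57.7. No pair of libraries differed by as little as counting noise, with a mean chi-square per gene of at least 2.33. Stem cell markers were abundant in every library. The summed level of 7 genes that include Pou5f1, Sox2 and Nanog was 3543 to 3696 CPM in R2i_BMPi and 4319 to 4439 CPM in R2i_control cultures. CPM are read counts relative to library size, scaled by TMM. By the test described below, 5 of the 7 were lower in R2i_BMPi and 0 higher, where 31.7% of all tested genes were lower.

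The 9 genes did not move as a block. With noggin and dorsomorphin, Hnf4a, Cubn, Lrp2 and Pdgfra rose, Sox7 fell, and Sox17, Foxa1 and Dab2 did not pass the test. Foxa2 was too low to test, with 6 counts over the R2i_BMPi libraries and 3 over the R2i_control libraries. Calls were made at an adjusted p of 0.05 with edgeR's quasi-likelihood test over all 15951 genes that passed a filter on low counts. That made 5 calls among 8 tested genes, 4 higher and 1 lower, where 64.2% of all tested genes were called, 32.5% higher and 31.7% lower. The share of called members is thus near the background. The median log2 fold change of the 8 genes was 0.66 and their median absolute change 0.92, beside -0.0031 and 0.37 for all tested genes. Standard errors of the 8 ran from 0.0902 to 0.457, beside a median of 0.0855 for all tested genes. Scatter at low counts widens absolute changes, so these medians are not compared at like levels. Groups did not overlap for the same 5 genes, where 68.6% of tested genes had separate groups (34.5% higher and 34.1% lower in R2i_BMPi). These are bulk cultures, so a change in the number of expressing cells and a change in RNA per cell cannot be told apart. The calls and directions of the 5 genes were kept without R2i_BMPi replicate 2.

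**Figure D1:**
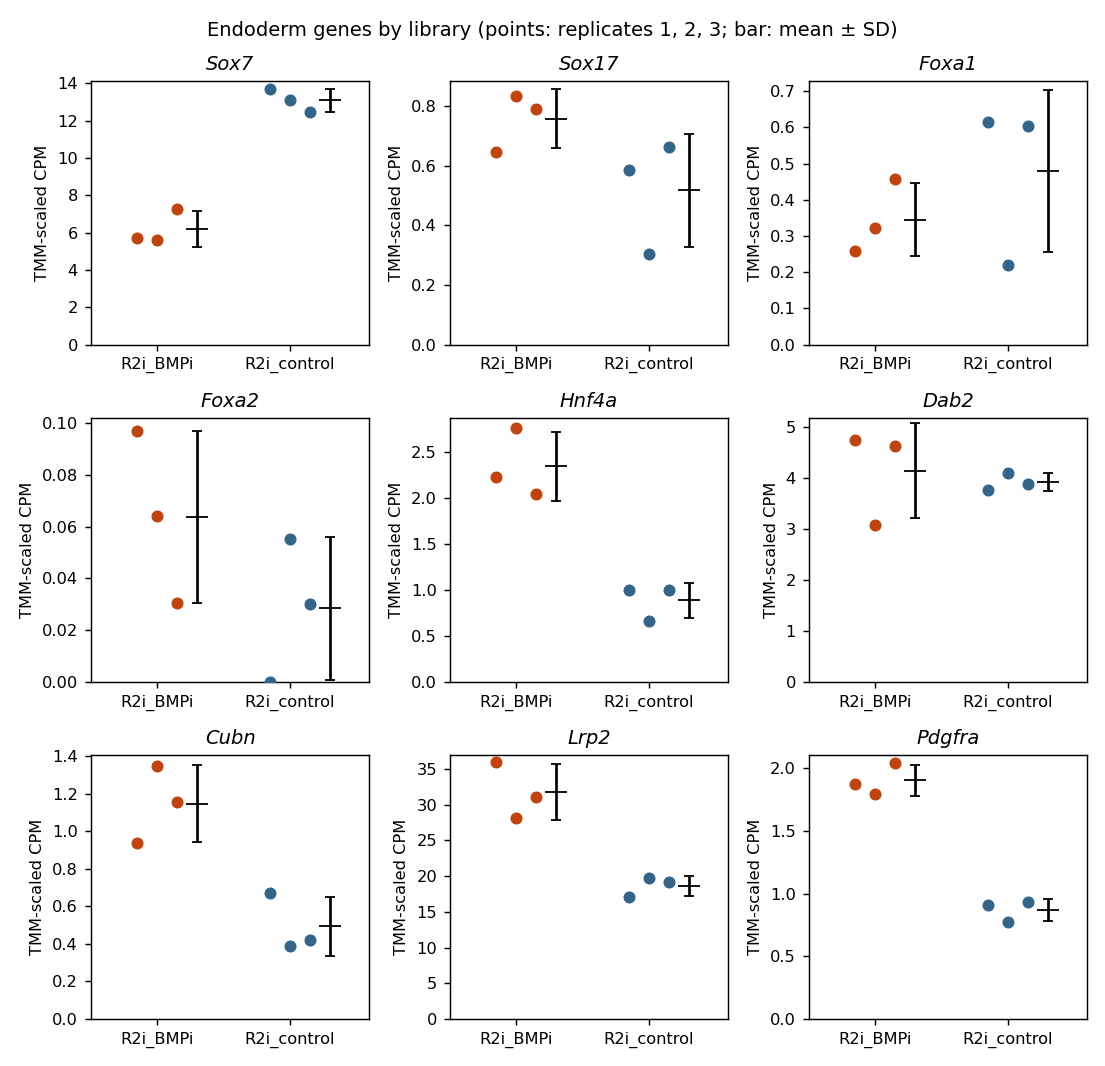
TMM-scaled CPM of each endoderm gene (vertical axes, each starting at 0) in the 3 R2i_BMPi and the 3 R2i_control libraries, with the mean and SD at the right of each group. Sox7 points lie lower in all R2i_BMPi libraries, Hnf4a, Cubn, Lrp2 and Pdgfra points lie higher in all of them, and the groups of the other genes overlap.

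Sox7 (ENSMUSG00000063060, chromosome 14, 63943673 to 63950732 on GRCm38) encodes an HMG-box factor of the SOXF family, a marker of primitive and parietal endoderm that also acts in blood vessel formation. Its levels were 5.72, 5.59 and 7.28 CPM in the R2i_BMPi libraries, against 13.7, 13.1 and 12.5 CPM in the R2i_control libraries. Every R2i_BMPi value lay below every control value. Sox7 averaged 6.19 ± 0.942 CPM in R2i_BMPi and 13.1 ± 0.605 CPM in R2i_control cultures (SD, n = 3 each), with a log2 fold change of -1.08 (SE 0.12) at an adjusted p of 7.94e-07. It was the single member that fell.

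Sox17 (ENSMUSG00000025902, chromosome 1, 4490931 to 4497354), the SOXF paralog that drives both endoderm fates, was much scarcer. The libraries held 20, 26 and 26 counts in R2i_BMPi, against 20, 11 and 22 counts in R2i_control cultures. In CPM the groups overlapped, with R2i_control replicate 3 within the R2i_BMPi range and the other controls below it. Levels were 0.757 ± 0.0990 CPM in R2i_BMPi and 0.517 ± 0.189 CPM in R2i_control cultures. The log2 fold change of 0.56 did not pass (95% interval -0.21 to 1.33, adjusted p = 0.188), so anything from a small decrease to a rise of over 2-fold remains possible at this depth. Per kilobase of annotated exon, Sox7 stood 12.8, 9.68 and 13.3 times above Sox17 in the R2i_BMPi libraries and 33.8, 62.5 and 27.2 times above it in the R2i_control libraries. Sox17 shares exon sequence with an antisense gene, Gm37587.

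Foxa1 and Foxa2 encode forkhead pioneer factors that open chromatin in endoderm. Foxa1 (ENSMUSG00000035451, chromosome 12, 57540628 to 57546916) held 8, 10 and 15 counts in the R2i_BMPi libraries, against 21, 8 and 20 counts in the R2i_control libraries. Control replicate 2 was the low one and placed that group across the other. The log2 fold change was -0.45 (95% interval -1.42 to 0.52, adjusted p = 0.396). Foxa2 (ENSMUSG00000037025, chromosome 2, 148042877 to 148046969), which marks visceral endoderm, the node and definitive endoderm, had 3, 2 and 1 counts in R2i_BMPi and 0, 2 and 1 counts in R2i_control libraries. No fold is given at these counts.

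Hnf4a (ENSMUSG00000017950, chromosome 2, 163506808 to 163572910) encodes a nuclear receptor that visceral endoderm needs for its secretory and lipid transport genes. Its levels were 2.23, 2.76 and 2.04 CPM in the R2i_BMPi libraries, against 0.995, 0.662 and 0.995 CPM in the R2i_control libraries. The lowest R2i_BMPi value was above the highest control. Hnf4a averaged 2.34 ± 0.374 CPM in R2i_BMPi and 0.884 ± 0.192 CPM in R2i_control cultures, or 1.41 higher on the log2 scale (SE 0.25, adjusted p = 0.000149). That was the largest rise among the members, from a total of 222 counts in R2i_BMPi and 91 in R2i_control libraries.

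Pdgfra (ENSMUSG00000029231, chromosome 5, 75152292 to 75198215) encodes a receptor tyrosine kinase for PDGF ligands, an early surface marker of primitive endoderm that is also present in mesoderm and fibroblasts. Libraries held 1.87, 1.798 and 2.04 CPM in R2i_BMPi, against 0.907, 0.772 and 0.935 CPM in R2i_control cultures. Both groups were tight and lay well apart. The means were 1.90 ± 0.124 CPM in R2i_BMPi and 0.871 ± 0.0869 CPM in R2i_control cultures, or 1.13 higher on the log2 scale (SE 0.24, adjusted p = 0.000697). Its exons overlap a microRNA gene on the same strand, Mir7025, and 2 antisense genes, Gm42802 and Gm42803, so its count is less certain.

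Lrp2, Cubn and Dab2 belong to the endocytic machinery of visceral endoderm. LRP2 (megalin) is a large receptor that spans the membrane, cubilin is an extracellular receptor that is held at the surface by amnionless and internalised with megalin, and DAB2 is an adaptor that links the megalin tail to clathrin. Lrp2 (ENSMUSG00000027070, chromosome 2, 69424340 to 69586065) had 36.0, 28.2 and 31.0 CPM in the R2i_BMPi libraries, against 17.0, 19.7 and 19.1 CPM in the R2i_control libraries. All R2i_BMPi values exceeded all controls, and replicate 2 was the lowest of its group. Lrp2 averaged 31.7 ± 3.94 CPM in R2i_BMPi and 18.6 ± 1.41 CPM in R2i_control cultures, or 0.77 higher on the log2 scale (SE 0.09, adjusted p = 2.11e-06). With 3011 counts in R2i_BMPi and 1931 in R2i_control libraries it was the most deeply counted member.

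Cubn (ENSMUSG00000026726, chromosome 2, 13276338 to 13491813) had 29, 42 and 38 counts in the R2i_BMPi libraries, against 23, 14 and 14 counts in the R2i_control libraries. The groups were separate, although the highest control, replicate 1 at 0.673 CPM, was not far from the lowest R2i_BMPi library, replicate 1 at 0.937 CPM. Cubn averaged 1.15 ± 0.206 CPM in R2i_BMPi and 0.494 ± 0.156 CPM in R2i_control cultures, or 1.21 higher on the log2 scale (SE 0.33, adjusted p = 0.00463). A filter at 1 CPM in at least 3 libraries left Cubn untested. An antisense gene, Gm13270, overlaps its exons.

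Dab2 (ENSMUSG00000022150, chromosome 15, 6299788 to 6440712) did not follow its receptor partners. Levels were 4.75, 3.08 and 4.63 CPM in the R2i_BMPi libraries, against 3.77, 4.11 and 3.89 CPM in the R2i_control libraries. R2i_BMPi replicate 2 lay below every control and the other R2i_BMPi replicates lay above every control. The log2 fold change was 0.08 (95% interval -0.28 to 0.45, adjusted p = 0.695). Without replicate 2 it was 0.26 and still did not pass (adjusted p = 0.138). Dab2 overlaps an antisense gene, Gm18888. In each library the Lrp2 level per kilobase was 3.33, 4.02 and 2.95 times that of Dab2 in R2i_BMPi, against 1.98, 2.11 and 2.16 times in R2i_control cultures.

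**Figure D2:**
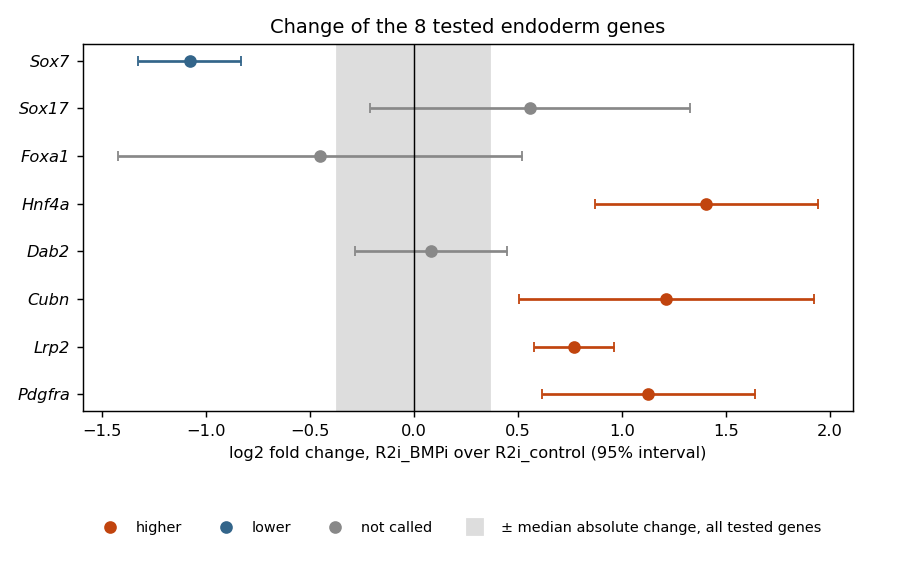
Log2 fold change of R2i_BMPi over R2i_control (horizontal axis) with its 95% interval for the 8 tested endoderm genes, coloured by call, and a grey band at plus and minus the median absolute change of all tested genes (0.37). Sox7 lies below 0 at -1.08, the 4 called risers lie between 0.77 and 1.41, and the intervals of Sox17, Foxa1 and Dab2 cross 0.

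Levels can be compared between genes only per length, here as CPM per kilobase of the union of annotated exons. In R2i_BMPi cultures the order began with Lrp2 at 1.90 ± 0.236 and Sox7 at 1.88 ± 0.286 CPM per kilobase, whose ranges overlapped. Dab2 (0.566) and Hnf4a (0.485) came next with overlapping ranges, then Pdgfra (0.190), which stood apart from its neighbours. Sox17 (0.159), Foxa1 (0.104) and Cubn (0.0768) overlapped in turn, and Foxa2 (0.0269) was the lowest. In R2i_control cultures Sox7 led at 3.97 ± 0.183 CPM per kilobase, clear of Lrp2 at 1.12 ± 0.0847 and Dab2 at 0.535 ± 0.0232. Hnf4a (0.183), Foxa1 (0.144), Sox17 (0.108) and Pdgfra (0.0869) overlapped from neighbour to neighbour there, and Cubn (0.0331) and Foxa2 (0.0120) closed the order.

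All members were in the lower part of the transcriptome. The median level of tested genes was 4.63 CPM per kilobase over both groups. Sox7 exceeded 41.5% of tested genes, Lrp2 31.4%, Dab2 18.2% and Hnf4a 12.2%. Pdgfra, Sox17 and Foxa1 exceeded 4.12% to 4.76%, and Cubn 0.791%. Annotated exon length ranged from 2370 bases for Foxa2 to 16701 bases for Lrp2, so the order by raw counts differs.

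Both counting noise and spread among libraries bear on how firmly each gene could be read. For Sox7, Lrp2 and Dab2 in R2i_BMPi cultures, the coefficient of variation over 3 libraries was 15.2%, 12.4% and 22.4%, where counting alone would give 7.13%, 3.16% and 8.71%. In R2i_control cultures the same genes varied by 4.62%, 7.59% and 4.35%, with 4.70%, 3.94% and 8.59% from counting. For Pdgfra the spread was below the counting value in both groups, at 6.52% against 12.9% in R2i_BMPi and 9.97% against 18.3% in R2i_control. With 3 libraries such estimates are themselves loose, and these values cover reads, which without molecular identifiers are not independent molecules.

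**Figure D3:**
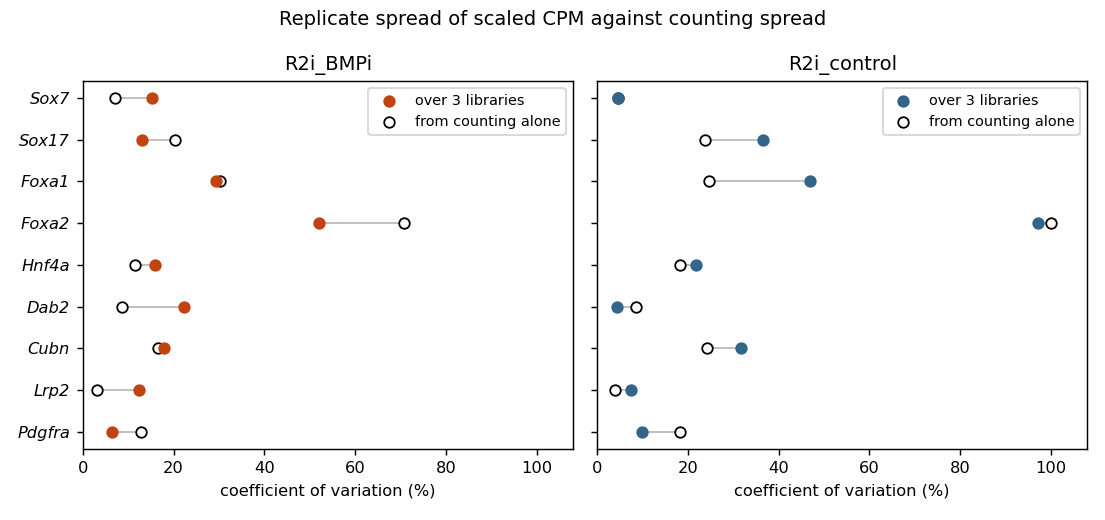
Coefficient of variation (horizontal axis, %) of scaled CPM over the 3 libraries of each group (filled) and the value counting alone would give (open) for each endoderm gene, with R2i_BMPi on the left and R2i_control on the right. In R2i_BMPi, Dab2, Sox7, Lrp2, Hnf4a and Cubn lie beyond their counting value, Cubn by the least (18.0% beside 16.6%), and Foxa2 in R2i_control has the widest spread, at 97.1% beside 100% from counting.

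Of the 9 genes, 4 lie on chromosome 2, and 3 of those, Hnf4a, Cubn and Lrp2, are among the 4 that rose. They are not neighbours of one another. The share of risers among all genes of chromosome 2 was not computed, so no pattern is read from this count. Promoter sequences are shown for the 4 risers, since these moved together. RefSeq promoter windows on GRCm38.p6, from 250 bases before to 50 after an annotated start, matched 7 members with 11 windows. Sox7 and Sox17 had no entry. Capitals mark matches on either strand to AGATAA (the core bound by GATA factors), TGTTTAC (forkhead factors), AACAAT (SOX factors), GTTAAT (some homeodomain factors) or GGCGCC (a palindrome bound by BMP-activated SMADs, counted once).
Hnf4a, upstream start, chr2:163506607-163506906, plus strand: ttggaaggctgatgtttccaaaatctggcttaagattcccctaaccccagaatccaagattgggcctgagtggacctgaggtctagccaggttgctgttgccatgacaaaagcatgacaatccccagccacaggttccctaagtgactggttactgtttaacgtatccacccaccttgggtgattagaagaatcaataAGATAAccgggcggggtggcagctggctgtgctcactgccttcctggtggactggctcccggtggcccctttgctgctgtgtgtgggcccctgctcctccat
Hnf4a, downstream start, chr2:163546905-163547204, plus strand: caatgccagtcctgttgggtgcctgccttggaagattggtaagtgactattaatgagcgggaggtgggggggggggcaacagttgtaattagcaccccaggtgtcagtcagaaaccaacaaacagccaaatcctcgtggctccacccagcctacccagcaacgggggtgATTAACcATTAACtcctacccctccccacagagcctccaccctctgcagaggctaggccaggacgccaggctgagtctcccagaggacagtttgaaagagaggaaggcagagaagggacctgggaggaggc
Cubn, chr2:13491827-13492126, minus strand: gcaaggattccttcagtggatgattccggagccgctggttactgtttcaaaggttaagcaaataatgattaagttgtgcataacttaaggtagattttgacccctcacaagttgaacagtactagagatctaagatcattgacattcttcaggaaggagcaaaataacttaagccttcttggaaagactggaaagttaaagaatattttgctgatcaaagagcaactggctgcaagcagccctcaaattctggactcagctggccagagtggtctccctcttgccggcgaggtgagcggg
Lrp2, chr2:69585980-69586279, minus strand: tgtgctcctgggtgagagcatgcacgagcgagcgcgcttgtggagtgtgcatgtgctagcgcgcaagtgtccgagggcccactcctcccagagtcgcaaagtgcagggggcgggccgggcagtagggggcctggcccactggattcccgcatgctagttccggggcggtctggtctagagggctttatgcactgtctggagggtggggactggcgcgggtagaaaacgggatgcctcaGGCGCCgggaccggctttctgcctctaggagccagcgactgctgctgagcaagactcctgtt
Pdgfra, chr5:75152001-75152300, plus strand: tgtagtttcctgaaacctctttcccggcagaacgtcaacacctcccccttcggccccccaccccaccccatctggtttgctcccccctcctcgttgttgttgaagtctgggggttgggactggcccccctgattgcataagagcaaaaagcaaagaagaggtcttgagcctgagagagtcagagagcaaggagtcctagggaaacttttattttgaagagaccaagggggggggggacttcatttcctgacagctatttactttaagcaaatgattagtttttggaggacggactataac

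None of the 5 motifs was shared by all 4 risers in these windows. The upstream Hnf4a window had 1 match to AGATAA, present in 11.2% of 32851 RefSeq promoter windows. Its downstream window had 2 matches to GTTAAT, which do not overlap each other, with a match in 7.10% of all windows. Lrp2 had 1 match to GGCGCC (11.9% of all windows), and Cubn and Pdgfra matched no motif. Among members that did not rise, TGTTTAC occurred in the Foxa1 window (3.65% of all windows). Both Dab2 windows and 1 of 3 Foxa2 windows held matches as well. AACAAT, in 10.7% of all windows, was in none of the 11 member windows. Base composition also differed, with 44.3% G and C in the Cubn window and 65.0% in the Lrp2 window beside a median of 52.7%. Counts per gene do not tell which Hnf4a start was used.

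Other endoderm genes, with partners and paralogs of the 9, were read in 6 lists of 64 genes, of which 52 could be tested. Of these, 23 rose and 11 fell, with a median log2 fold change of 0.23. As with the 9 genes, this stands beside 32.5% higher and 31.7% lower among all tested genes. In each list below, the genes named are up to 5 with the smallest p, unless stated.

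In the list of genes that specify primitive endoderm, 4 of 7 rose and 2 fell (median 0.43). The ligand gene Fgf4, made by pluripotent cells, fell to 308 ± 18.6 CPM in R2i_BMPi, against 521 ± 6.21 CPM in R2i_control cultures (log2 fold change -0.76, SE 0.05). Its receptor genes rose, Fgfr2 to 35.2 ± 2.82 CPM in R2i_BMPi against 6.15 ± 0.337 CPM in R2i_control (2.51, SE 0.09) and Fgfr1 by 0.46 (SE 0.05). Grb2, the adaptor that couples FGF receptors to RAS, rose by 0.31 (SE 0.04). Gata4 fell by 0.74 (SE 0.10), with 7.76 ± 0.0244 CPM in R2i_BMPi and 12.96 ± 0.794 CPM in R2i_control cultures. Gata6, singled out once its values were known, went the other way, with 57, 27 and 27 counts in R2i_BMPi against 12, 15 and 12 counts in R2i_control libraries (log2 fold change 1.63, SE 0.39, adjusted p = 0.00162). Sox7 and Gata4 thus both fell while Gata6, Hnf4a and Pdgfra rose. The Sox7 level per kilobase was 0.869, 0.851 and 1.11 times that of Gata4 in R2i_BMPi and 1.26, 1.12 and 1.21 times in R2i_control libraries, so the ranges stood just apart. Fgfr2 shares exon sequence with Ctbp2 on the same strand, and Gata6 and Fgfr1 overlap antisense genes.

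Parietal endoderm and basement membrane genes had 7 risers and 3 fallers of 11 (median 0.28). Lama1, the laminin alpha chain of the early embryo's basement membrane, fell to 48.2 ± 6.88 CPM in R2i_BMPi, against 145 ± 3.94 CPM in R2i_control cultures (log2 fold change -1.59, SE 0.07). Its partner chain gene Lamb1 rose to 128 ± 0.434 CPM in R2i_BMPi, against 77.8 ± 0.689 CPM in R2i_control (0.72, SE 0.04). Sparc, a matrix glycoprotein, and Nid1, a basement membrane linker, rose by 0.37 and 0.28. Srgn, a secretory granule proteoglycan, fell by 1.24 (SE 0.18). Nid1 overlaps an antisense gene.

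Visceral endoderm genes were mostly near the detection limit. Of 11, 6 could be tested, 2 rose and 0 fell by edgeR (median 0.46). The count of fallers was 0 at an unadjusted p under 0.05 and with DESeq2 as well. Cited1, a transcriptional coregulator, had 1.78 ± 0.356 CPM in R2i_BMPi and 0.404 ± 0.151 CPM in R2i_control cultures (log2 fold change 2.12, SE 0.33), and Vil1, a microvillus protein, rose by 0.80 (SE 0.23). The apolipoprotein genes Apoa2 and Apob and the retinol carrier gene Rbp4 did not pass, at -0.14, 0.51 and 0.42. Apoa2 was not scarce, with 14.1 ± 0.906 CPM in R2i_BMPi and 15.6 ± 1.44 CPM in R2i_control cultures. Afp, Ttr and Apoa1, which mature visceral endoderm expresses strongly, each had under 10 counts in every library. Vil1 overlaps an antisense gene.

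Anterior visceral and definitive endoderm genes had 2 risers and 2 fallers among 8 tested of 12 (median 0.14). Hhex, a homeobox gene of anterior endoderm, rose by 0.36 (SE 0.10) and Prox1, of liver progenitors, by 1.20 (SE 0.34), although the Prox1 groups overlapped. Otx2, a head organiser factor also present in epiblast, fell by 0.21 (SE 0.08, adjusted p = 0.0357). The Otx2 call was lost with DESeq2 and without R2i_BMPi replicate 1 or 3 or R2i_control replicate 1 or 3 (adjusted p = 0.0644 to 0.176). Gsc did not pass, at 0.39, and Cer1, a secreted antagonist of the anterior visceral endoderm, had 0 counts in all libraries. Otx2 and Prox1 overlap antisense genes, and Otx2 a gene on the same strand as well.

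**Figure D4:**
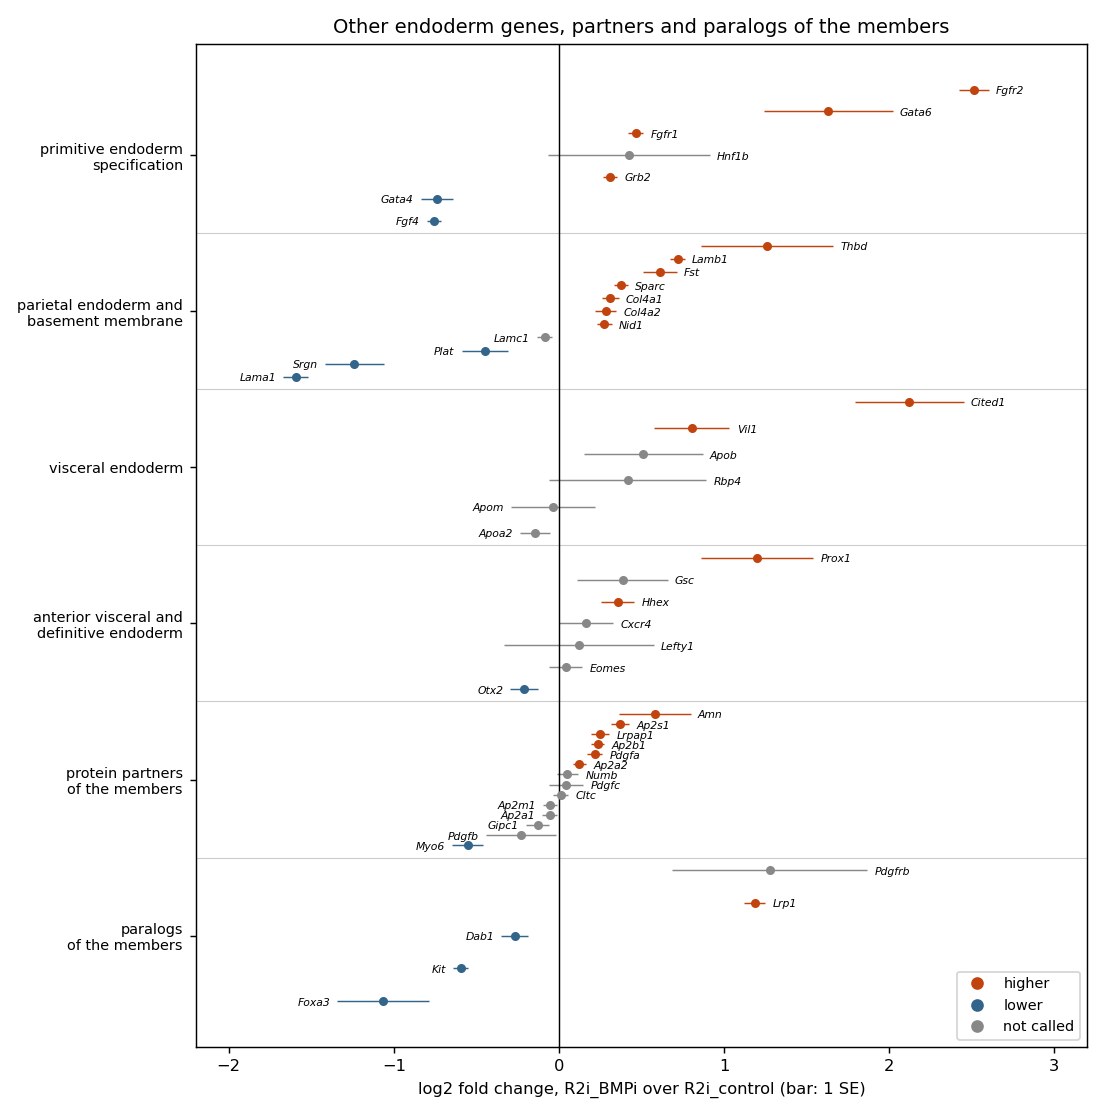
Log2 fold change of R2i_BMPi over R2i_control (horizontal axis; bars are 1 SE) for 50 tested genes of 6 lists, coloured by call. Every list except visceral endoderm holds genes called in both directions, from Lama1 at -1.59 to Fgfr2 at 2.51.

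Among 16 genes for protein partners of the 9, 15 were tested, 7 rose and 1 fell (median 0.05). The clathrin adaptor subunits Ap2s1 and Ap2b1 rose by 0.37 (SE 0.05) and 0.23 (SE 0.04). Pdgfa, the ligand gene for the receptor encoded by Pdgfra, rose to 111 ± 4.15 CPM in R2i_BMPi, against 95.9 ± 1.33 CPM in R2i_control (0.22, SE 0.05). Myo6, a motor that works with DAB2 in endocytosis, fell by 0.55 (SE 0.09). Amn, which encodes the cubilin anchor amnionless and was likewise singled out with its values known, had 123, 144 and 85 counts in R2i_BMPi, against 101, 77 and 79 in R2i_control libraries (log2 fold change 0.58, SE 0.22, adjusted p = 0.0275). Its groups overlapped and its call was lost without any 1 of 4 libraries, R2i_BMPi replicates 1 and 2 and R2i_control replicates 2 and 3 (adjusted p = 0.0661 to 0.12). With library totals as the only scaling, 4 partner genes were lower. Ap2b1 and Pdgfa overlap antisense genes.

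Of 7 paralogs, 5 were tested, 1 rose and 3 fell (median -0.27). Lrp1, of the same receptor family as Lrp2, rose to 134 ± 12.4 CPM in R2i_BMPi, against 58.9 ± 3.42 CPM in R2i_control cultures (log2 fold change 1.18, SE 0.06). Kit, a receptor tyrosine kinase related to PDGFRA, fell by 0.59 (SE 0.05), the forkhead gene Foxa3 by 1.06 (SE 0.28) and Dab1, a neuronal adaptor related to DAB2, by 0.27 (SE 0.08). Pdgfrb did not pass, at 1.28 (SE 0.59, adjusted p = 0.067), although it passed without R2i_BMPi replicate 1 and with no count filter. Hnf4g had 0 counts in every library.

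Markers of other cell types moved between the groups as well, beside 32.5% higher and 31.7% lower among all tested genes. With 3 to 6 tested genes per list, shares within a list are rough. Some risers passed the count filter only through R2i_BMPi libraries, so their rise was nearly fixed by the filter. In the endothelial list these were Kdr, Cldn5 and Erg, with 9, 17 and 8 counts over the R2i_control libraries. A trophectoderm, a mesoderm and a fibroblast riser were of this kind too, with 10, 5 and 2 counts there. The shares are therefore not read as a result about these lists. The summed level of 8 trophectoderm markers was 298 to 380 CPM in R2i_BMPi and 164 to 168 CPM in R2i_control libraries, and 5 of 6 tested members rose. Tfap2c, which was not called, made up most of the R2i_control sum, with 128 CPM there and 137 CPM in R2i_BMPi. Cdx2, a defining factor of that lineage, was singled out with its values known. It was scarce, with 43 counts over the R2i_BMPi and 2 over the R2i_control libraries. Elf5 stayed under 10 counts in every library. Of 6 mesoderm markers 2 of 3 tested rose, with sums of 3.05 to 4.30 CPM in R2i_BMPi and 1.32 to 1.51 CPM in R2i_control, and T, Mesp1 and Msgn1 stayed under 10 counts in every library. Of 7 fibroblast markers 2 of 3 tested rose, with sums of 8.41 to 9.43 CPM in R2i_BMPi and 5.53 to 6.94 CPM in R2i_control. Col1a2, Col3a1, Dcn and Lum had under 10 counts in every library. Of 6 endothelial markers 3 of 5 tested rose and 1 fell, with sums of 130 to 173 CPM in R2i_BMPi and 188 to 194 CPM in R2i_control. That sum was mostly Pecam1, the one that fell (102 CPM in R2i_BMPi, 143 CPM in R2i_control), and Tek, not called (42.5 and 47.4 CPM). Kdr, Cldn5, Erg and Cdh5 were scarce, at 0.662 CPM or less in R2i_BMPi, and each was lower still in R2i_control. The part of such cells in the levels of Sox7, Sox17 or Pdgfra was not tested.

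Over the 6 libraries, the genes nearest to a member were those with the smallest root mean square distance between log2 CPM profiles, each centred on its own mean. This was computed for 5 members, those whose log2 CPM averaged at least 0. Sox7 was nearest to Kcnip3 (0.0443) and Dpysl4 (0.0648), and Lrp2 to Adcy5 (0.0290) and Mybl1 (0.0312). Pdgfra was nearest to Gca (0.0477) and Prdx6 (0.0698), Hnf4a to Zbp1 (0.0961) and Gpr135 (0.101), and Dab2 to Vav1 (0.0559) and Snord87 (0.0654). None of these neighbours was another member. Such profiles are set mostly by the difference between groups, and 118 genes lay within 0.1 of Lrp2, 46 of Pdgfra, 26 of Sox7, 21 of Dab2 and 1 of Hnf4a.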

How the data were processed

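RNA from 3 R2i_BMPi and 3 R2i_control cultures, called biological replicates in the labels, was sequenced as poly(A)-selected, strand-marking mRNA libraries. The authors deposited raw read counts per Ensembl gene, 1 table per library with 53465 genes. The submitters' processing notes list the build GRCm38.p6 and, without roles, the tools HTSeq 0.9.1, STAR 2.6.1, CASAVA 1.8.2, cutadapt 1.4.2 and DESeq2. No source used here gives the annotation release or the strand setting, so reads of a gene and an antisense gene in the same place may not have been told apart. The 5 rows that name no gene held 25.6% to 26.4% of reads and were left out.

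Symbols, positions and exon lengths came from GENCODE M21 (53360 identifiers matched). Genes passing edgeR 4.0.16's default filter (minimum count 10, minimum total 15) were scaled by TMM and tested with its two-sided quasi-likelihood F test, and p-values were adjusted by Benjamini-Hochberg over all 15951 genes, with a threshold of 0.05. The procedure was tested on simulated data. Standard errors were the unshrunk coefficient divided by the root of its F statistic. CPM are scaled by TMM, and log2 CPM use a prior count of 2. BLAST 2.17.0 found no other gene matching at 90% identity over 50% of a member's longest transcript. Work was done in Python 3.11.15 and R 4.3.3.

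The members and lists were chosen with earlier results of these data known. All members are named, with up to 5 genes of smallest p per list, of which 2 are counted but not reported here by name. From marker lists, sums and genes near 0 are given, with a few other genes named once their values were known. The motifs were chosen after the results were seen. Alternatives were DESeq2 1.42.0, other scalings and filters, a replicate block and leaving out each library.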

Additional observations from a re-analysis of the deposited data

How the results depend on the processing

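Of 101 values of the 8 tested members under 13 alternatives, 99 kept their direction and their side of the threshold. The exceptions were those of Dab2, whose uncalled change turned to -0.0208 without R2i_BMPi replicate 1 and -0.0020 without replicate 3. Its range over left-out libraries was -0.0208 to 0.258. Called members ranged, over left-out libraries, from -1.21 to -1.01 for Sox7, 1.22 to 1.501 for Hnf4a, 1.05 to 1.495 for Cubn, 0.671 to 0.848 for Lrp2 and 1.04 to 1.17 for Pdgfra. The count of 4 higher and 1 lower members was 3 and 1 under the stricter filter, which left Sox17, Foxa1, Foxa2 and Cubn untested.

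Small list counts moved. Risers among anterior visceral and definitive endoderm genes numbered 4 with no count filter and 1 under the stricter filter, and fallers 1 with DESeq2 and 1 to 2 over left-out libraries. Partner fallers numbered 2 with no count filter, 4 with library totals only and 1 to 2 over left-out libraries. Paralog risers numbered 3 with no count filter, 2 with DESeq2 and 1 to 2 over left-out libraries. In these moves genes either entered or left the test, as Prox1 did under the stricter filter, or crossed the threshold. With library totals as the only scaling, Gipc1, Ap2a1 and Ap2m1 crossed it. Gipc1 also crossed it with no count filter and without R2i_BMPi replicate 2. The median log2 fold change of all tested genes was -0.0621 with library totals only, beside -0.0031 in the main fit. Why genes crossed it was not tested. The replicate block changed no call of a member (Sox7 -1.08, Hnf4a 1.41). Deviations of same-numbered libraries correlated at -0.0443, 0.00791 and 0.0287, within the range for unlike numbers (-0.0537 to 0.0434). No pairing by number was visible, but 3 libraries per group cannot exclude one. Genes near or under 1 CPM, such as Sox17, Foxa1 and Cubn, carry counting noise of 16.6% to 30.2%. Their spread among controls was wider than counting gives, at 31.6% to 46.8%.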

Other observations

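Of 12 listed genes left out by the count filter, 7 had more counts in R2i_BMPi than in R2i_control libraries, 3 (Afp, Ttr and Apoa1) had fewer, and 2 (Cer1 and Hnf4g) had 0 in all. The 4 described here were chosen after their values were seen, and no test is given. Sox18, the remaining SOXF paralog, had 6, 6 and 26 counts in R2i_BMPi and 1, 3 and 3 counts in R2i_control libraries, so most of its reads came from replicate 3. Mixl1, a homeobox gene of the primitive streak that precedes definitive endoderm, had 7, 20 and 19 counts in R2i_BMPi and 5, 9 and 5 counts in R2i_control libraries. Lhx1, a LIM-homeobox gene of the anterior visceral endoderm and organiser, had 7, 3 and 12 counts in R2i_BMPi and 1, 1 and 4 counts in R2i_control libraries. Dkk1, a WNT antagonist of the anterior visceral endoderm, had 0, 2 and 8 counts in R2i_BMPi and 0, 0 and 1 counts in R2i_control libraries. R2i_BMPi values of Mixl1, Lhx1 and Dkk1 overlapped those of R2i_control, and those of Sox18 did not.

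Summed over the 5 transcription factor genes (Sox7, Sox17, Foxa1, Foxa2 and Hnf4a), the level was 8.95, 9.57 and 10.6 CPM in R2i_BMPi and 15.9, 14.3 and 14.8 CPM in R2i_control libraries. Summed over Lrp2, Cubn and Dab2 it was 41.7, 32.6 and 36.8 CPM in R2i_BMPi and 21.5, 24.2 and 23.4 CPM in R2i_control libraries. The sums are carried by Sox7 and by Lrp2, the most counted member of each set.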
